A study of Mus musculus with 12 samples.

Results

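The dependence of the *Zbed6* silencing effect on time was examined in mouse myoblasts by setting the effect at 96 h against the effect at 48 h. The interaction of a probe is its silenced minus control difference at 96 h minus the same difference at 48 h, on the log2 scale, so that a positive value means a difference that lay higher at 96 h. All 12 of the 12 arrays of the series entered 1 fit of 4 group means. Of 25697 probes, 13095 (51%) were measured, which required 3 or more of the 12 arrays with a detection p-value under 0.05. The measured probes named 8858 genes, and each gene is given by its brightest measured probe.

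The cells were C2C12, an established mouse myoblast line whose cells fuse into myotubes on differentiation. The groups were ZBED6 siRNA at 96 h, negative control siRNA at 96 h, ZBED6 siRNA at 48 h and negative control siRNA at 48 h, each with 3 arrays of biological replicates, and they are called silenced and control cells at each time. Both arms were reverse transfected with a pool of siRNAs, against *Zbed6* in silenced cells and with scrambled sequence in control cells, so the comparison is within 1 cell line and has no untransfected cells. Total RNA was hybridised to Illumina mouse BeadChip arrays.

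ZBED6 is a transcription factor of placental mammals that derives from a domesticated DNA transposon, and its gene lies in an intron of *Zc3h11a*. It is best known as a repressor of *Igf2*, which encodes insulin-like growth factor 2, a growth factor of developing muscle. It binds DNA at sites with the core GCTCGC.

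An array detected between 12078 and 12558 probes and had a median raw signal between 76.5 and 90.8. Arrays correlated at 0.9925 or higher within a group and at up to 0.9928 between groups. No probe used here was named *Zbed6*, so the extent of silencing on each day was not measured on the arrays. By qPCR on the same siRNA experiment, the paper reported *Zbed6* mRNA reduced on both days. The reduction it states was smaller at 96 h than at 48 h. Of the myoblast and myotube markers, 9 of 10 on the array were measured, among them *Myod1*, *Myog*, *Des* and *Acta1*, and *Myf5* was not. Measured markers of other cell types were 5 of 9 for smooth muscle and myofibroblasts, 2 of 8 for adipocytes, 2 of 8 for bone and cartilage, 1 of 7 for leukocytes, 3 of 10 for epithelium and endothelium and 5 of 9 for neurons and glia. Of all these markers 1, the adipocyte gene *Lpl*, passed the interaction test.

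The silencing effect differed between the days for 385 of 13095 probes (2.94%) at an adjusted p under 0.05 in limma, with 192 positive (1.47%) and 193 negative interactions (1.47%). Of the 8858 genes, 271 (3.06%) passed by their brightest probe. The size of the interaction among the 385 probes ran from 0.43 to 1.62 with a median of 0.69 on the log2 scale, and 300 probes lay over 1.5-fold and 30 over 2-fold. The median SE of an interaction was 0.16. The last probe inside the threshold was that of *Dynll2* (-1.42, adjusted p = 0.0499) and the first outside that of *Eef1b2* (-0.52, adjusted p = 0.0501). At an unadjusted p under 0.05, 2876 probes (22%) passed. For 88 of the 271 genes there were 123 further measured probes, of which 108 had an interaction of the same sign and 25 passed, all 25 with the same sign. Of the 385 probes 338 were detected on all 12 arrays and 35 had at least 1 group with no detected array. Among them 9 were detected in 1 group only and so met the detection filter through the group where they were high, and their interaction rests on values at background in the other groups.

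In the same fit 480 probes were higher (3.67%) and 478 lower (3.65%) in silenced cells at 96 h, while 839 were higher (6.41%) and 897 lower (6.85%) at 48 h. Of the 958 probes past the threshold at 96 h, 137 (14.3%) also passed the interaction test, as did 243 (14%) of the 1736 at 48 h. A further 590 probes passed at 96 h only and 1262 at 48 h only without passing the interaction test, so for these a difference between the days was not shown.

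The count of 385 depended on single arrays. It was 103, 73 and 208 without silenced replicate 1, 2 or 3 at 96 h, and 121, 66 and 205 without control replicate 1, 2 or 3 at 96 h. It was 370, 266 and 97 without silenced replicate 1, 2 or 3 at 48 h, and 96, 235 and 198 without control replicate 1, 2 or 3 at 48 h. The direction of the 385 calls was near even (49.9% positive), and without silenced replicate 2 at 96 h 37% of the calls were positive. The calls of 50 probes held in all 12 of these fits that leave out 1 array, and for a named gene whose brightest probe did not hold in all 12 the number of fits in which it held, or the arrays without which it was lost, is given with its values.

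The 385 probes were grouped by the day on which the effect itself passed. Fading probes, past the threshold at 48 h and not at 96 h, numbered 220. Emerging probes, past at 96 h and not at 48 h, numbered 114, and reversing probes, past on both days in opposite directions, numbered 18. Of the rest, 1 probe had a larger and 4 had a smaller effect of the same direction at 96 h, and 28 passed on neither day. A class says which day passed and not that the other effect was 0. The p-values were adjusted for each day on its own, and more probes passed at 48 h. The counts of fading and emerging probes thus do not compare the days at 1 unadjusted threshold. On the other day the estimate had the opposite sign in 188 of the 220 fading and 101 of the 114 emerging probes. Selection for a difference between the days favours opposite signs, so these counts are no separate result. Against these stood 231 probes of 173 genes with an effect in the same direction on both days and an interaction that did not pass.

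**Figure D1:**
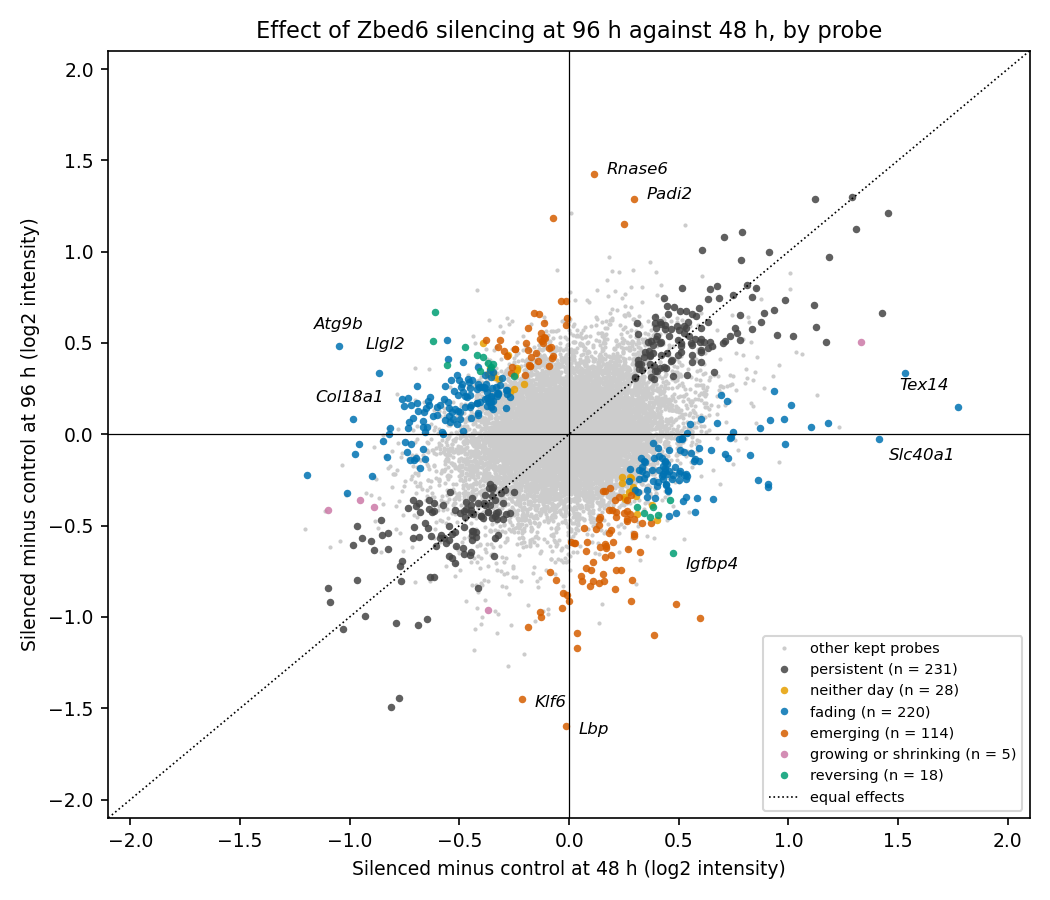
Silencing effect at 96 h (vertical axis) against that at 48 h (horizontal axis) for the measured probes, both silenced minus control on the log2 scale; each point is a probe, and colours mark the classes of the 385 probes past the interaction test and the 231 probes with an effect in 1 direction on both days. Fading probes spread along the 48 h axis, emerging probes along the 96 h axis, and the 18 reversing probes lie in the quadrants of opposite sign.

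*Igf2*, the known target of ZBED6, was higher in silenced cells on both days, by 0.45 at 96 h and 0.35 at 48 h. Its log2 intensity was 14.68, 14.58 and 14.52 in silenced and 14.15, 14.10 and 14.19 in control cells at 96 h, and 14.73, 14.63 and 14.51 in silenced and 14.45, 14.15 and 14.24 in control cells at 48 h. On each day the lowest silenced array was above the highest control array. The interaction was 0.10 (95% interval -0.19 to 0.39, limma, adjusted p = 0.704). In the paper's qPCR the rise of *Igf2* began at 48 h and reached, at 96 h, a larger fold than on these arrays. *Zc3h11a*, the host gene of *Zbed6*, had an effect of -0.11 at 96 h and -0.44 at 48 h, and its interaction of 0.33 (95% interval -0.05 to 0.71) did not pass (adjusted p = 0.286). Its probe was above background on 1 of 3 arrays of silenced cells at 48 h and on every array of the other groups.

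Fading rises passed as higher in silenced cells at 48 h only and numbered 96 probes and 63 genes. Their median effect was -0.18 at 96 h and 0.50 at 48 h, and they were led by *Slc40a1*, *Tex14*, *Mc4r* and *Lpl*. *Slc40a1* encodes ferroportin, the exporter of iron from cells. It read 8.55, 8.74 and 8.54 in silenced and 8.55, 8.64 and 8.71 in control cells at 96 h, and 9.33, 9.26 and 9.35 in silenced and 7.93, 7.94 and 7.84 in control cells at 48 h. The arms overlapped at 96 h and lay apart at 48 h, where silenced cells were 2.66-fold higher. The interaction was -1.44 (SE 0.12, adjusted p = 0.000249), and between 48 h and 96 h the gene changed by -0.71 in silenced and by 0.73 in control cells. In bulk RNA, fewer cells of a type and less RNA per cell cannot be told apart.

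*Lpl* encodes lipoprotein lipase, which frees fatty acids from circulating lipoproteins. It read 10.63, 10.47 and 10.25 in silenced and 10.48, 10.66 and 10.37 in control cells at 96 h, and 9.30, 9.38 and 9.52 in silenced and 8.36, 8.40 and 8.51 in control cells at 48 h. Both arms were higher at 96 h than at 48 h, by 1.05 in silenced and 2.08 in control cells, and they overlapped at 96 h only. The interaction was -1.04 (SE 0.16, adjusted p = 0.0157). *Lpl* and *Pparg* were the 2 measured adipocyte markers of 8 on the array, and *Adipoq*, *Fabp4*, *Plin1*, *Cidec*, *Cebpa* and *Retn* were not measured. The log2 of their summed signal was 10.46 to 10.83 in silenced and 10.57 to 10.84 in control cells at 96 h, and 9.68 to 9.89 in silenced and 9.05 to 9.12 in control cells at 48 h. The part of such cells in the *Lpl* result was not tested.

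Several fading rises were near background outside silenced cells at 48 h. *Tex14*, which encodes a protein of the intercellular bridges of germ cells, read 6.83, 7.35 and 6.89 in silenced and 5.23, 5.35 and 5.18 in control cells at 48 h. It was detected on 1 of 3 control arrays at 48 h and on no array at 96 h, so no fold is given there, and its interaction was -1.62 (SE 0.17, adjusted p = 0.00186). *Mc4r*, which encodes a melanocortin receptor known for its part in appetite, read 6.79, 6.96 and 6.79 in silenced and 5.22, 5.45 and 5.27 in control cells at 48 h. For both genes the arms lay apart at 48 h. *Mc4r* was above background on 1 of 3 silenced and 0 of 3 control arrays at 96 h, and its interaction was -1.19 (SE 0.15, adjusted p = 0.00638). *Ido1*, an enzyme that degrades tryptophan, was detected on the silenced arrays at 48 h and on no other array, and met the detection filter only through them. There it was at least 1.81-fold higher in silenced cells, the bound being set by the dimmest detected signal of each control array. Its interaction of -1.12 (adjusted p = 0.0169) did not pass with the authors' processed values, and over all alternatives its adjusted p ran from 0.0071 to 0.0512. *Snrnp27*, a component of the spliceosome, was well detected throughout. It read 8.70, 8.70 and 8.79 in silenced and 8.89, 8.96 and 8.66 in control cells at 96 h, and 8.78, 8.79 and 8.82 in silenced and 7.96, 8.10 and 8.19 in control cells at 48 h. Only the control cells at 48 h stood apart, and the interaction was -0.82 (SE 0.13, adjusted p = 0.0169).

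Fading falls passed as lower in silenced cells at 48 h only and numbered 124 probes and 98 genes. Their median effect was 0.17 at 96 h and -0.51 at 48 h. *Col18a1*, a collagen of basement membranes, read 12.37, 12.35 and 12.32 in silenced and 12.32, 12.19 and 12.27 in control cells at 96 h, and 12.36, 12.26 and 12.32 in silenced and 13.19, 13.39 and 13.32 in control cells at 48 h. The control cells at 48 h stood about 1 log2 unit above the other groups. The interaction was 1.07 (SE 0.11, adjusted p = 0.00186), and a second *Col18a1* probe was also fading, at 0.96. *Hk1*, the hexokinase that starts glycolysis in most tissues, read 8.81, 8.53 and 8.32 in silenced and 8.23, 8.19 and 8.25 in control cells at 96 h, and 7.92, 7.59 and 7.70 in silenced and 8.71, 8.54 and 8.56 in control cells at 48 h. The arms did not overlap on either day and their order turned, with an effect of 0.33 at 96 h, which did not pass, and -0.87 at 48 h. The interaction was 1.20 (SE 0.17, adjusted p = 0.0149).

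*Atg9b*, which encodes a membrane protein of autophagosome formation, had the largest interaction of the fading falls, at 1.53 (SE 0.20, adjusted p = 0.00638). It read 8.74, 8.81 and 8.34 in silenced and 8.04, 8.24 and 8.17 in control cells at 96 h, and 8.17, 8.43 and 8.43 in silenced and 9.63, 9.29 and 9.24 in control cells at 48 h. The order of the arms again turned. *Clip4*, a gene of the microtubule-binding CAP-Gly family (0.88), and *Slc4a8*, a sodium-dependent bicarbonate transporter (0.93), overlapped between the arms at 96 h and lay lower in silenced cells at 48 h, by 0.72 and 0.74. *Bsg*, which encodes the surface protein basigin, was detected on the 3 control arrays at 48 h and on no other array by its 1 measured probe, so that it met the detection filter only through that group. Silenced cells were at least 1.24-fold lower there, and the interaction of 0.87 (adjusted p = 0.00708) did not pass with the authors' processed values (adjusted p over all alternatives 0.00388 to 0.0582).

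An effect of the same direction that was smaller at 96 h was found for *Ddc*, *Slc22a18*, *Fam102a* and *Adarb1*. *Ddc*, which encodes the decarboxylase that makes dopamine and serotonin, read 8.25, 8.30 and 8.17 in silenced and 7.54, 7.79 and 7.88 in control cells at 96 h, and 9.41, 9.52 and 9.53 in silenced and 7.99, 8.31 and 8.17 in control cells at 48 h. The arms lay apart on both days, by 0.50 at 96 h and 1.33 at 48 h, and the interaction of -0.83 (SE 0.15, adjusted p = 0.0196) was lost without control replicate 2 at 96 h. *Slc22a18*, an imprinted transporter gene, was detected on no silenced array. At 48 h it was at least 1.63-fold lower in silenced cells, and its interaction of 0.69 held in 2 of the 12 fits, as did that of *Fam102a* (0.59). The call of *Slc22a18* was kept in 5 of 11 other settings of the processing and did not pass with the authors' processed values. *Adarb1*, an RNA-editing adenosine deaminase, was lower by 0.40 at 96 h and 0.89 at 48 h, but its interaction of 0.49 (adjusted p = 0.048) held in 0 of the 12 fits. The call of *Adarb1* was kept in 6 of the 11 other settings and did not pass with the authors' processed values. The effect on *Hacd4*, an enzyme of long-chain fatty acid elongation, was the 1 that grew, with -0.96 at 96 h and -0.37 at 48 h and an interaction of -0.59 (adjusted p = 0.0348) that held in 3 of the 12 fits and did not pass with the authors' processed values.

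Emerging falls passed as lower in silenced cells at 96 h only and numbered 73 probes and 49 genes. Their median effect was -0.62 at 96 h and 0.16 at 48 h. *Klf6*, a zinc finger transcription factor of the early response to growth signals, read 8.89, 9.14 and 8.89 in silenced and 10.49, 10.26 and 10.52 in control cells at 96 h, and 10.87, 10.35 and 10.72 in silenced and 10.79, 10.86 and 10.94 in control cells at 48 h. Only the silenced cells at 96 h stood apart. The effect was -1.45 at 96 h and -0.22 at 48 h, and the interaction was -1.23 (SE 0.18, adjusted p = 0.0157), with a second probe emerging at -1.13. *Cxcl12*, the chemokine that guides cells carrying CXCR4, read 8.66, 8.99 and 8.92 in silenced and 9.84, 9.44 and 9.53 in control cells at 96 h, and 8.76, 8.52 and 8.68 in silenced and 8.40, 8.54 and 8.38 in control cells at 48 h. It climbed by 1.16 between 48 h and 96 h in control cells, against a change of 0.20 in silenced cells, and the arms overlapped at 48 h. The interaction was -0.96 (SE 0.17, adjusted p = 0.0196), while 2 further probes had -0.78 and -0.66 and did not pass.

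The promoters of *Klf6*, *Cxcl12*, *Padi2* and *Cox7a2* are shown as examples of different courses, chosen after the values were seen, from the 18 of 60 matched named genes that hold the ZBED6 core within 250 bases before to 50 bases after the start, with the core (GCTCGC, or GCGAGC where it lies on the opposite strand) in capitals. They are RefSeq sequences of build GRCm38.p6, 5′ to 3′ along the gene, at chr13:5861239-5861538 (plus strand), chr6:117168285-117168584 (plus strand), chr4:140906110-140906409 (plus strand) and chr9:79759804-79760103 (minus strand). Their directions differ, since *Klf6* and *Cxcl12* are emerging falls, *Padi2* an emerging rise and *Cox7a2* a fading rise.
Klf6: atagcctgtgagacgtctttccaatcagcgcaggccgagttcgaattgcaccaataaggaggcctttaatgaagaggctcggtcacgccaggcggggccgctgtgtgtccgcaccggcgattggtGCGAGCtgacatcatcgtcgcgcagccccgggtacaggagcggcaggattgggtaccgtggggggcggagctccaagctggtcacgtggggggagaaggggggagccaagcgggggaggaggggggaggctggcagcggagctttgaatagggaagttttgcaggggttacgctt
Cxcl12: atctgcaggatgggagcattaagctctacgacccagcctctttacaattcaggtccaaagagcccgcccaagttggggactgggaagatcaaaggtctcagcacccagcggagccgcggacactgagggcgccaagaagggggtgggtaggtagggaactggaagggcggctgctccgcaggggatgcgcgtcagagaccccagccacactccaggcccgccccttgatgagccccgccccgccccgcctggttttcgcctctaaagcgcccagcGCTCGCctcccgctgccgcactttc
Padi2: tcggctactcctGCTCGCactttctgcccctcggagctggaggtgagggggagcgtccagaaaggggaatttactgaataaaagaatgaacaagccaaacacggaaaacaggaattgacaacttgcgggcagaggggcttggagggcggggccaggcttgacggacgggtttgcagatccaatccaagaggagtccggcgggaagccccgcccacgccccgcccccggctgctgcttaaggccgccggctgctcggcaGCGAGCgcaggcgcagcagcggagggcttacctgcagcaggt
Cox7a2: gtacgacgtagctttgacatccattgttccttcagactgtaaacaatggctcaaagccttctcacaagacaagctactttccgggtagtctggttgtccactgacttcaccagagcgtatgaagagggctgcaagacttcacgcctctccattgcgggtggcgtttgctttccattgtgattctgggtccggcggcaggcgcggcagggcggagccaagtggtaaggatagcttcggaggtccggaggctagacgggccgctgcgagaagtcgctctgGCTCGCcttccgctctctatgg

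The core was found on either strand in 14.1% of all 32851 promoter windows of this length and in 24.2% of the 9351 windows of measured genes. Among the genes past the interaction test, 208 of 271 matched the table, and 59 of their 259 windows (22.8%) held it. The share was 21.7% for fading genes, 21.7% for emerging genes, 0 of 5 windows for reversing genes and 22.8% for genes with an effect on both days. Counted by gene, 28.2% of matched measured genes and 26.4% of those past the interaction test held it, beside 18 of the 60 matched named genes. By either count the share in genes past the interaction test was thus near that of measured genes. For the named genes alone, windows on chromosome 18 were left out before the 60 were counted. The median GC content of the windows was 60% for genes past the interaction test, 60.7% for measured genes and 52.7% for all.

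Of the other emerging falls with the smallest p, *Mgst1*, a membrane-bound glutathione S-transferase, read 7.31, 7.54 and 7.12 in silenced and 8.14, 8.33 and 8.05 in control cells at 96 h, and overlapped at 48 h. Its interaction was -1.06 (SE 0.17, adjusted p = 0.0169), and a second probe passed at -0.83. *Fmo1*, a flavin-containing monooxygenase, read 10.44, 10.62 and 10.70 in silenced and 11.48, 11.33 and 11.36 in control cells at 96 h, with an interaction of -0.92. *Gkap1*, an anchoring protein of the cGMP-dependent protein kinase, had an effect of -0.77 at 96 h and 0.15 at 48 h, and an interaction of -0.92. For both genes the arms lay apart at 96 h and overlapped at 48 h. *Cnot4*, a ubiquitin ligase linked to the CCR4-NOT complex, had -0.81 by its brightest probe, but its 2 other measured probes had -0.18 and 0.09, and the call was lost with the mean over probes. *Zmat1*, a zinc finger gene, had -0.86, which did not pass with the authors' processed values (adjusted p over all alternatives 0.0103 to 0.052).

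The largest emerging falls varied more between replicates. *Lbp*, the binding protein of bacterial lipopolysaccharide, read 5.70, 5.78 and 5.91 in silenced and 7.01, 7.31 and 7.85 in control cells at 96 h, and 5.02, 5.43 and 4.84 in silenced and 5.30, 4.65 and 5.38 in control cells at 48 h. At 96 h the arms lay apart, and at 48 h it was detected on 1 of 3 arrays in each arm. Its interaction of -1.58 (SE 0.32, adjusted p = 0.0278) was lost without silenced replicate 1 or 2 at 96 h, control replicate 2 at 96 h or control replicate 1 at 48 h. *Npr3*, the clearance receptor of natriuretic peptides, read 5.85, 6.07 and 6.01 in silenced and 7.77, 6.56 and 6.90 in control cells at 96 h, and 5.79, 5.93 and 5.64 in silenced and 5.36, 5.31 and 5.51 in control cells at 48 h. Its arms lay apart on both days, although the effect of 0.39 at 48 h did not pass. The interaction of -1.49 (SE 0.31, adjusted p = 0.0317) held in 5 of the 12 fits and did not pass with the authors' processed values or with no filter (adjusted p over all alternatives 0.00722 to 0.122). *Dynll2*, a dynein light chain, had an interaction of -1.42 (SE 0.35) that held in 2 of the 12 fits. Its silenced arrays at 96 h were spread widely, at 5.55, 6.48 and 6.77.

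Emerging rises passed as higher in silenced cells at 96 h only and numbered 41 probes and 30 genes. Their median effect was 0.50 at 96 h and -0.14 at 48 h. *Padi2*, an enzyme that converts arginine to citrulline in proteins, read 6.73, 6.62 and 6.62 in silenced and 5.32, 5.31 and 5.49 in control cells at 96 h, and 5.30, 5.05 and 5.63 in silenced and 5.07, 4.94 and 5.09 in control cells at 48 h. Only the silenced cells at 96 h stood apart. It was above background at 48 h on 1 of 3 silenced and 0 of 3 control arrays. The interaction of 1.0 (SE 0.18, adjusted p = 0.0196) was lost without control replicate 2 at 96 h.

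*Upk1b*, a membrane protein of the bladder lining, and *Rnase6*, a secreted ribonuclease, were not detected on any array at 48 h. *Upk1b* read 7.24, 7.22 and 7.02 in silenced and 5.81, 6.18 and 6.02 in control cells at 96 h, and *Rnase6* read 7.05, 6.52 and 6.42 in silenced and 5.17, 5.38 and 5.16 in control cells, where it was detected on 1 of 3 arrays. Both genes had arms that lay apart at 96 h. Their interactions were 0.90 (SE 0.14, adjusted p = 0.0169) for *Upk1b* and 1.31 (SE 0.19, adjusted p = 0.0157) for *Rnase6*, and that of *Rnase6* did not pass with the authors' processed values (adjusted p over all alternatives 0.00363 to 0.052). Since both arms were at background at 48 h, these values rest on the 96 h arrays. *Tmem131*, a factor in collagen secretion, had 0.75 and *Ints1*, the scaffold of the Integrator complex that cleaves nascent RNA, had 0.71, each with a lower silenced arm at 48 h that did not pass on its own. *Tmem131* was lost without control replicate 2 at 96 h, and *Ints1* held in 7 of the 12 fits. *Cdk11b*, a kinase linked to splicing, had 0.53 by its brightest probe and -0.17 by its other probe, the mean over its probes did not pass, and the call held in 6 of the 12 fits.

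Of the genes that changed direction between the days 9 passed on both. *Nrep*, which encodes a small protein named for its expression in regenerating neurons, read 8.88, 9.04 and 9.01 in silenced and 9.39, 9.25 and 9.38 in control cells at 96 h, and 9.47, 9.38 and 9.25 in silenced and 8.97, 8.91 and 8.84 in control cells at 48 h. On both days the arms lay apart, in opposite order. Its effect was -0.36 at 96 h and 0.46 at 48 h, and the interaction was -0.82 (SE 0.12, adjusted p = 0.0157). *Llgl2*, a regulator of cell polarity, read 6.91, 6.88 and 6.56 in silenced and 6.33, 6.15 and 6.34 in control cells at 96 h, and 5.41, 5.48 and 5.67 in silenced and 6.09, 6.37 and 5.96 in control cells at 48 h. Here the silenced arm lay above at 96 h and below at 48 h, and the interaction was 1.13 (SE 0.18, adjusted p = 0.0169). *Eola1* had an effect of -0.40 at 96 h and 0.31 at 48 h, with an interaction of -0.71 (adjusted p = 0.0171) and a second probe at -0.20 that did not pass.

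*Igfbp4*, a binding protein that holds insulin-like growth factors away from their receptor, read 6.03, 6.15 and 6.17 in silenced and 6.71, 6.77 and 6.82 in control cells at 96 h, and 7.82, 7.79 and 7.37 in silenced and 7.49, 6.92 and 7.15 in control cells at 48 h. The arms lay apart at 96 h and overlapped at 48 h. The interaction was -1.12 (SE 0.20, adjusted p = 0.0196), was lost without control replicate 2 at 96 h, and a second probe was fading at -1.18. Of the other reversing genes, which all lay higher in silenced cells at 96 h and lower at 48 h, *Ctsw*, a cathepsin, had an interaction of 0.73 that was lost without silenced replicate 2 at 96 h. *Plec*, which encodes the cytolinker plectin, had 0.75 and was lost without replicate 2 of either arm at 96 h. *Slc4a3*, an anion exchanger, had 0.81 and a second reversing probe at 0.95, and it held in 7 of the 12 fits, as did *Phldb1* at 0.57. *Aknad1* had 0.85, was detected on no silenced array at 48 h and was at least 1.09-fold lower there. It held in 5 of the 12 fits and did not pass with the authors' processed values (adjusted p over all alternatives 0.0193 to 0.0978).

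**Figure D2:**
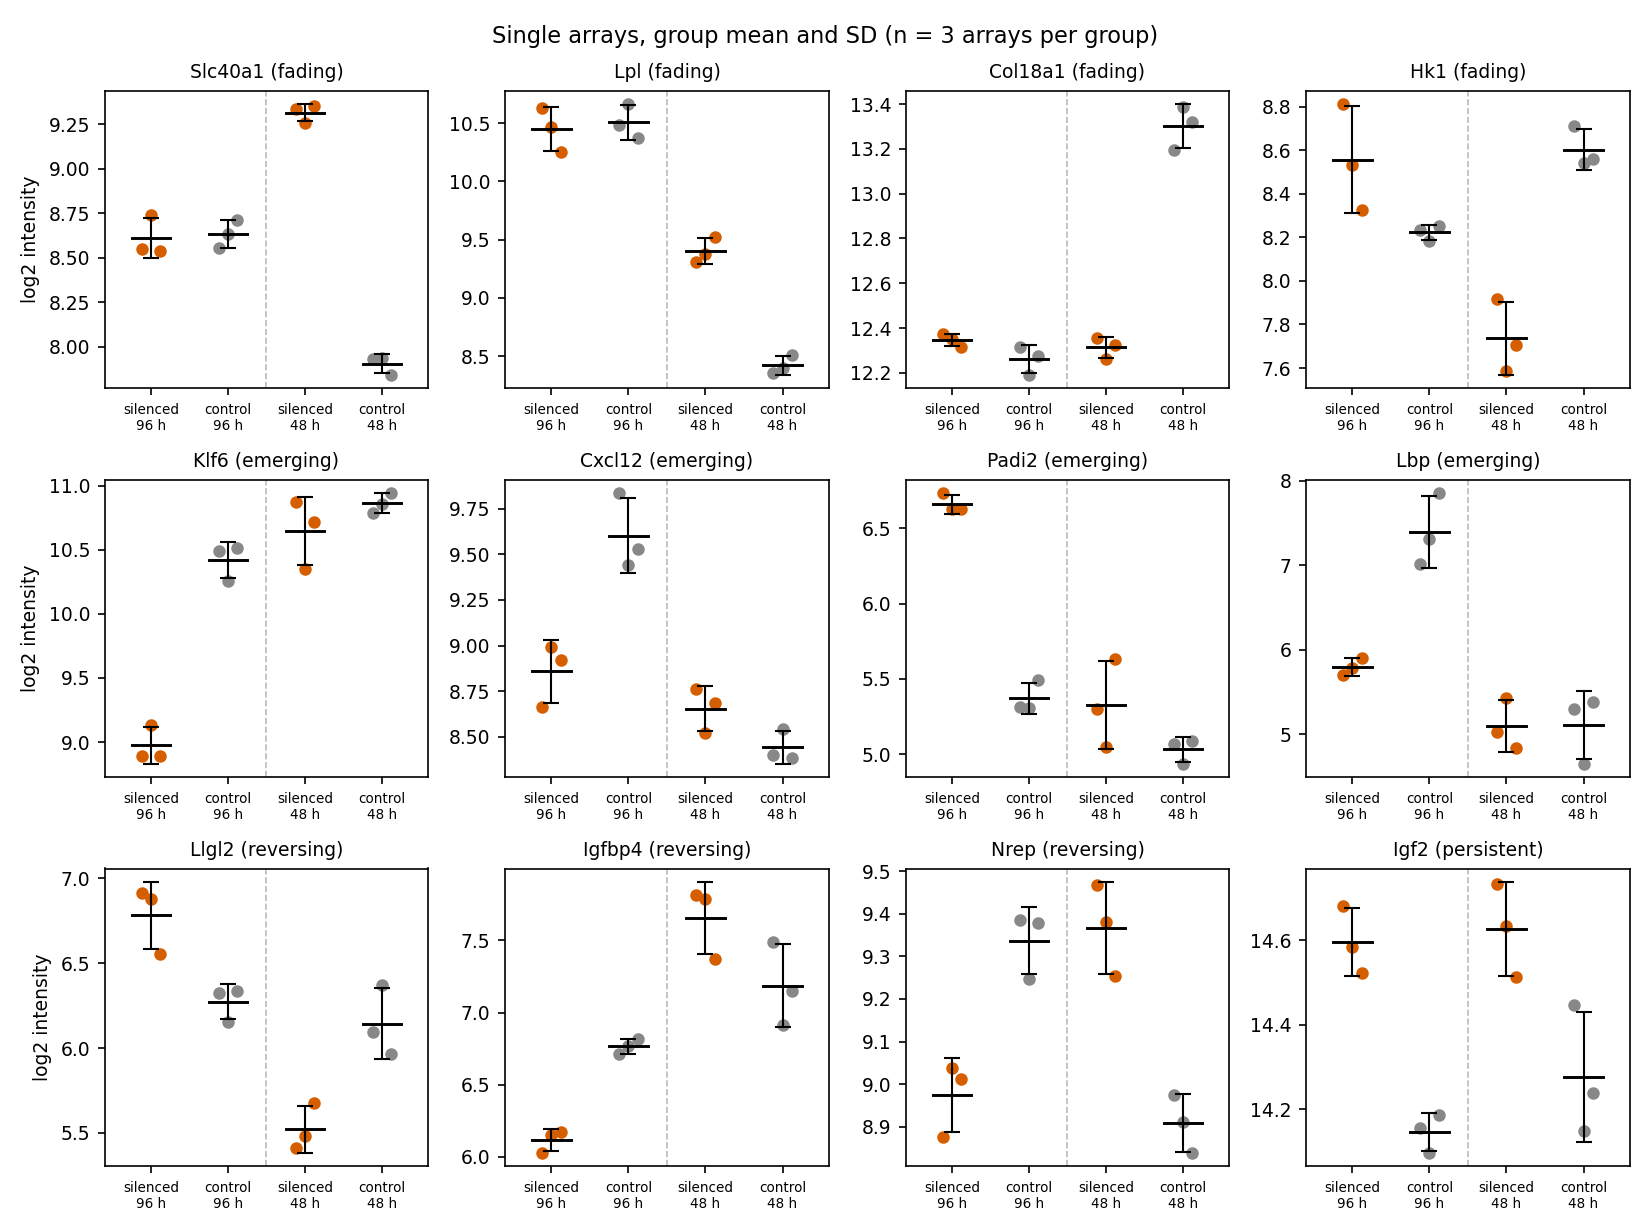
Normalized log2 intensity (vertical axes) of 12 genes on each of the 12 arrays, with silenced and control cells at 96 h and then at 48 h; points are arrays, lines are group means and bars are SD over 3 arrays. In the fading gene *Slc40a1* the arms overlap at 96 h and lie apart at 48 h, in the emerging gene *Klf6* the reverse holds, in the reversing gene *Llgl2* their order turns, and in *Igf2* silenced arrays lie above control arrays on both days.

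A class of 28 probes and 17 genes passed the interaction test with an effect past the threshold on neither day, and in all 28 the estimates of the days had opposite signs. The opposite signs follow from the class, since effects of the same sign that both miss cannot differ enough to pass. Among the positive ones were *Rac3*, a small GTPase (0.90), *Adamts7*, a secreted protease (0.72), *Acvr2b*, a receptor of myostatin and activins (0.65), *Supt6*, a transcription elongation factor (0.57), and *Ptprs*, a receptor tyrosine phosphatase (0.48). *Rac3* was detected on no control array at 96 h, where silenced cells were at least 1.2-fold higher, and on no silenced array at 48 h. Among the negative ones were *Map3k1*, a kinase upstream of JNK (-0.75), *Ammecr1l* (-0.59), *Snrpd1*, a core protein of spliceosomal particles (-0.58), *Fam162a* (-0.51) and *Tomm7*, a subunit of the mitochondrial import channel (-0.47). *Acvr2b* read 8.45, 8.34 and 8.11 in silenced and 7.93, 7.99 and 8.04 in control cells at 96 h, and 8.05, 7.99 and 8.02 in silenced and 8.54, 8.37 and 8.17 in control cells at 48 h. Its arms lay apart on both days by small amounts, with an interaction SE of 0.15 (adjusted p = 0.0416). These 10 calls were fragile. Each held in at most 3 of the 12 fits, and that of *Tomm7* in 0. Those of *Rac3* and *Map3k1* did not pass with the authors' processed values.

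Each interaction is also the change with time in silenced cells minus that in control cells. Among the 385 probes the change between 48 h and 96 h passed in silenced cells only for 154, in control cells only for 134 and in both for 97. Over all 13095 measured probes this change passed for 3702 in silenced and for 4229 in control cells. In fading rises the silenced arm was lower at 96 h than at 48 h for 51 of 96 probes and higher for 9, and the control arm was higher for 54 and lower for 7. In fading falls the silenced arm was higher at 96 h for 78 of 124 probes and the control arm lower for 65. In emerging falls the silenced arm was lower at 96 h for 46 of 73 probes and the control arm higher for 33. The sign of the interaction sets which arm's change lies lower, so these directions follow in part from the class. Among the 385 probes a change with time in control cells alone was thus about as frequent as one in silenced cells alone.

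**Figure D3:**
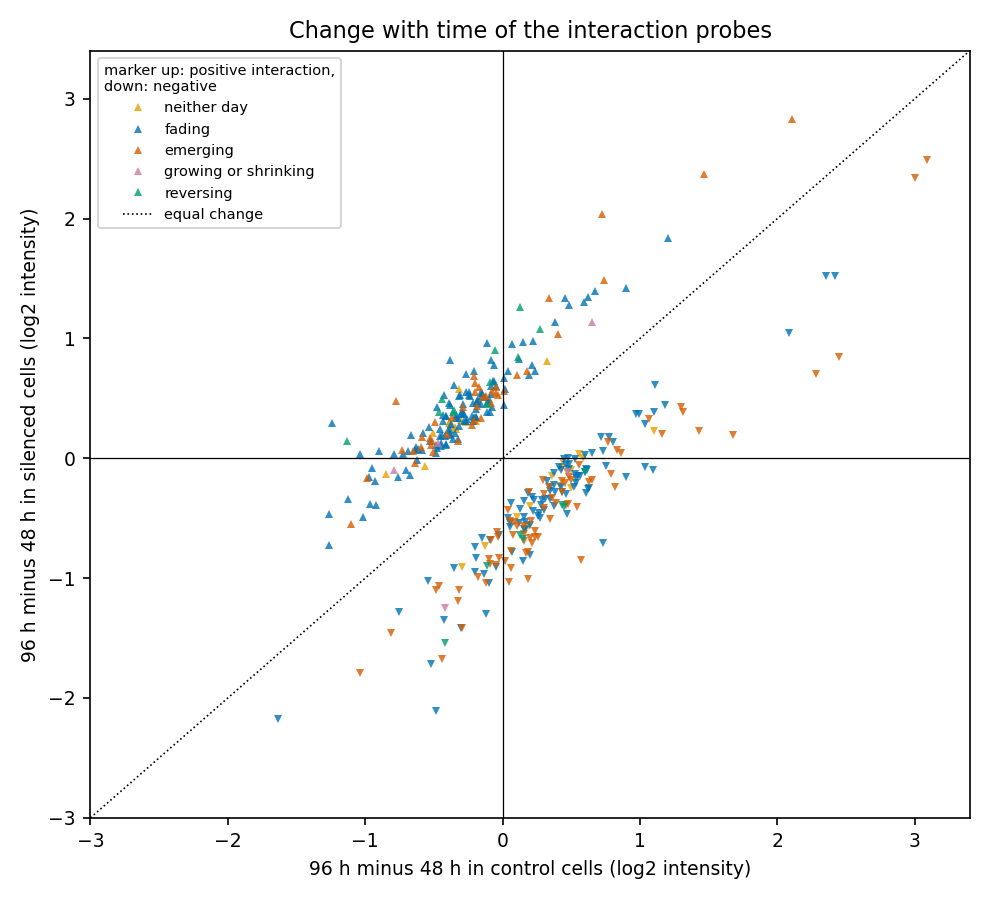
Change between 48 h and 96 h in silenced cells (vertical axis) against that in control cells (horizontal axis) on the log2 scale; each point is a probe, coloured by class. The vertical distance from the diagonal is the interaction. Points past the test lie off the diagonal where only the silenced arm moved (154 probes), where only the control arm moved (134) and where both did (97).

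Genes of the muscle programme passed the interaction test in small numbers, beside 3.06% of all genes. Of 43 measured genes of the sarcomere 1 passed, *Xirp1*, which encodes an actin-binding protein of muscle (0.61, adjusted p = 0.048), and of 43 genes for excitation, calcium stores and the metabolism of muscle 1 passed, *Casq1*, the calcium store protein calsequestrin (0.72, adjusted p = 0.0317), which is 2.33% of each list and near the share of all genes. *Casq1* read 7.65, 7.40 and 7.40 in silenced and 6.70, 6.85 and 7.08 in control cells at 96 h and was detected on no array at 48 h. Its arms lay apart at 96 h, and the interaction held in 4 of the 12 fits, while that of *Xirp1* held in 1. The median interaction was 0.20 for the sarcomere list, with 32 of 43 estimates positive, and 0.17 for the excitation list, with 33 of 43, beside a median of 0.01 over all 8858 genes. Their median effect was 0.34 and 0.32 at 96 h, and 0.17 and 0.18 at 48 h. In the sarcomere list 12 genes were higher in silenced cells at 96 h and 6 at 48 h, beside 323 and 578 of all 8858 genes.

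Of 31 measured myogenic regulators 2 passed (6.45%, beside 3.06% of all genes), both fading rises by their brightest probe. *Mef2c*, a transcription factor of muscle differentiation, read 10.49, 10.30 and 9.96 in silenced and 10.07, 10.15 and 10.30 in control cells at 96 h, and 8.73, 8.92 and 8.54 in silenced and 7.96, 7.67 and 7.82 in control cells at 48 h. Both arms were higher at 96 h, where they overlapped. The interaction was -0.84 (SE 0.20, adjusted p = 0.0422), and the other *Mef2c* probes passed at -0.90 and -1.60. The probe at -1.60 was an emerging fall, with effects of -1.01 at 96 h and 0.60 at 48 h, and held in all 12 fits. The probe at -0.90 held in 3 of the 12 fits, and the call of the brightest probe in 1. That call was kept in 7 of 11 other settings of the processing and did not pass with the authors' processed values. *Hey1*, a Notch target that restrains myogenesis, had -0.62 and held in 2 of the 12 fits. Of the muscle genes that the study names, a list chosen on RNA of the same cells and so not independent, *Mef2c* and *Tgfbr1* (-0.59, held in 1 of the 12 fits) passed of 17 (11.8%). Unlike the sarcomere and excitation lists, these 17 had a larger median effect at 48 h (0.43) than at 96 h (0.32). Their median interaction was -0.07, with 6 positive estimates. In the insulin-like growth factor axis 2 of 17 measured genes passed (11.8%), *Igfbp4* and *Igfbp6* (0.75, held in 3 of the 12 fits), the second lower in silenced cells by 0.60 at 48 h and 0.15 above control cells at 96 h.

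Of 33 measured chemokine, cytokine and acute phase genes 5 passed (15.2%, beside 3.06% of all genes). *Cxcl12*, *Lbp* and *Ccl7* (-0.84, held in 1 of the 12 fits) were emerging falls, *Ccl8* (-0.83) a fading rise and *Tlr2*, a receptor of bacterial lipoproteins (0.77), a fading fall, so the members did not share 1 course. *Ccl8*, a chemokine of monocytes, was detected on the 3 silenced arrays at 48 h and on no other array, at least 1.48-fold above control cells. Since it met the detection filter only through that group, its call is no support for the list, and among the 32 members detected in more than 1 group 4 passed (12.5%). The call of *Ccl8* was lost without replicate 1 of either arm or control replicate 2 at 96 h and with the authors' processed values, and that of *Tlr2* held in 2 of the 12 fits. The leukocyte markers *Ptprc*, *Lyz2* and *Itgam* were not measured, and 1 of 7, *Cd3e*, was. Its log2 signal was 5.55 to 5.71 in silenced and 5.31 to 5.72 in control cells at 96 h, and 5.92 to 6.38 in silenced and 5.42 to 5.90 in control cells at 48 h. The part of such cells in the chemokine results was not tested.

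Extracellular matrix genes passed with positive interactions only, 4 of 50 measured (8%, beside 3.06% of all genes). *Col18a1*, *Col1a1* (0.72) and *Col5a1* (0.59), which encode collagens, were fading falls, and *Lama2*, a laminin chain of the muscle basement membrane (0.62), was an emerging rise. *Col5a1* read 12.89, 12.98 and 12.81 in silenced and 12.90, 12.80 and 12.94 in control cells at 96 h, and 12.60, 12.53 and 12.62 in silenced and 13.22, 13.16 and 13.10 in control cells at 48 h. Its arms overlapped at 96 h and lay apart at 48 h. The list had a median effect of -0.08 at 96 h and -0.20 at 48 h, and 6 of its genes were lower in silenced cells at 96 h and 14 at 48 h. Over all 8858 genes 325 were lower at 96 h and 668 at 48 h. The call of *Col5a1* held in 6, that of *Lama2* in 4 and that of *Col1a1* in 2 of the 12 fits. With the authors' processed values *Col1a1* did not pass. *Bmp1*, the protease that trims procollagens, had 0.69 by its brightest probe and was lost without replicate 2 of either arm at 96 h.

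Of 72 measured genes of oxidative phosphorylation 4 passed (5.56%, beside 3.06% of all genes). They were all fading rises, namely the cytochrome c oxidase gene *Cox7a2* (-0.67), *Cox7a2l*, a factor of respiratory supercomplexes (-0.47), the complex I gene *Ndufb3* (-0.45) and *Cycs*, which encodes cytochrome c (-0.74). *Cox7a2* read 9.60, 9.68 and 9.58 in silenced and 9.77, 9.92 and 9.70 in control cells at 96 h, and 9.94, 10.00 and 10.08 in silenced and 9.51, 9.44 and 9.61 in control cells at 48 h. The order of its arms turned, and its call was lost without control replicate 2 at 96 h or silenced replicate 3 at 48 h. The calls of *Cox7a2l* and *Ndufb3* held in 0 and that of *Cycs* in 3 of the 12 fits. Of the 72 genes 12 had a positive estimate, and 1 was higher in silenced cells at 96 h and 23 at 48 h. Over all 8858 genes 4521 had a positive estimate, and 323 were higher at 96 h and 578 at 48 h. The median effect was 0.02 at 96 h and 0.20 at 48 h, and the median interaction -0.17, beside -0.27 for 12 housekeeping reference genes.

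Ribosomal protein genes had a median interaction of -0.19 with 8 of 58 positive estimates, and 1 passed, *Rpl27a* (-0.65, adjusted p = 0.02), which was lost without replicate 2 of either arm at 96 h. Of 32 proteasome and ubiquitin genes 1 passed, *Psmc6* (-0.54), which held in 0 of the 12 fits and did not pass with the authors' processed values or 4 other settings (adjusted p over all alternatives 0.0324 to 0.113), with a list median of -0.13. Of 54 nucleolar genes 3 passed (5.56%, beside 3.06% of all genes), *Nop10* (-0.78), *Tcof1* (-0.62) and *Heatr1* (0.60). *Nop10* held in 6, *Heatr1* in 5 and *Tcof1* in 0 of the 12 fits. Of 12 housekeeping reference genes 0 passed in limma, with a median of -0.27 and 6 at an unadjusted p under 0.05, so the shift of these lists was shared by genes commonly used as references. No gene of the cell cycle (52 measured), cholesterol and fatty acid synthesis (32), the stress and unfolded protein response (38), the interferon response (27) or myoblast fusion (23) passed in limma, and 6, 7, 5, 4 and 6 of them lay at an unadjusted p under 0.05. Single genes passed in the remaining lists, among them *Car9*, a carbonic anhydrase induced by hypoxia (-0.92), *Porcn*, the acyltransferase of Wnt proteins (0.66), and *Plk3*, a p53-responsive kinase (0.53). *Porcn* held in 6 of the 12 fits, and *Car9* and *Plk3* in 1 each.

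**Figure D4:**
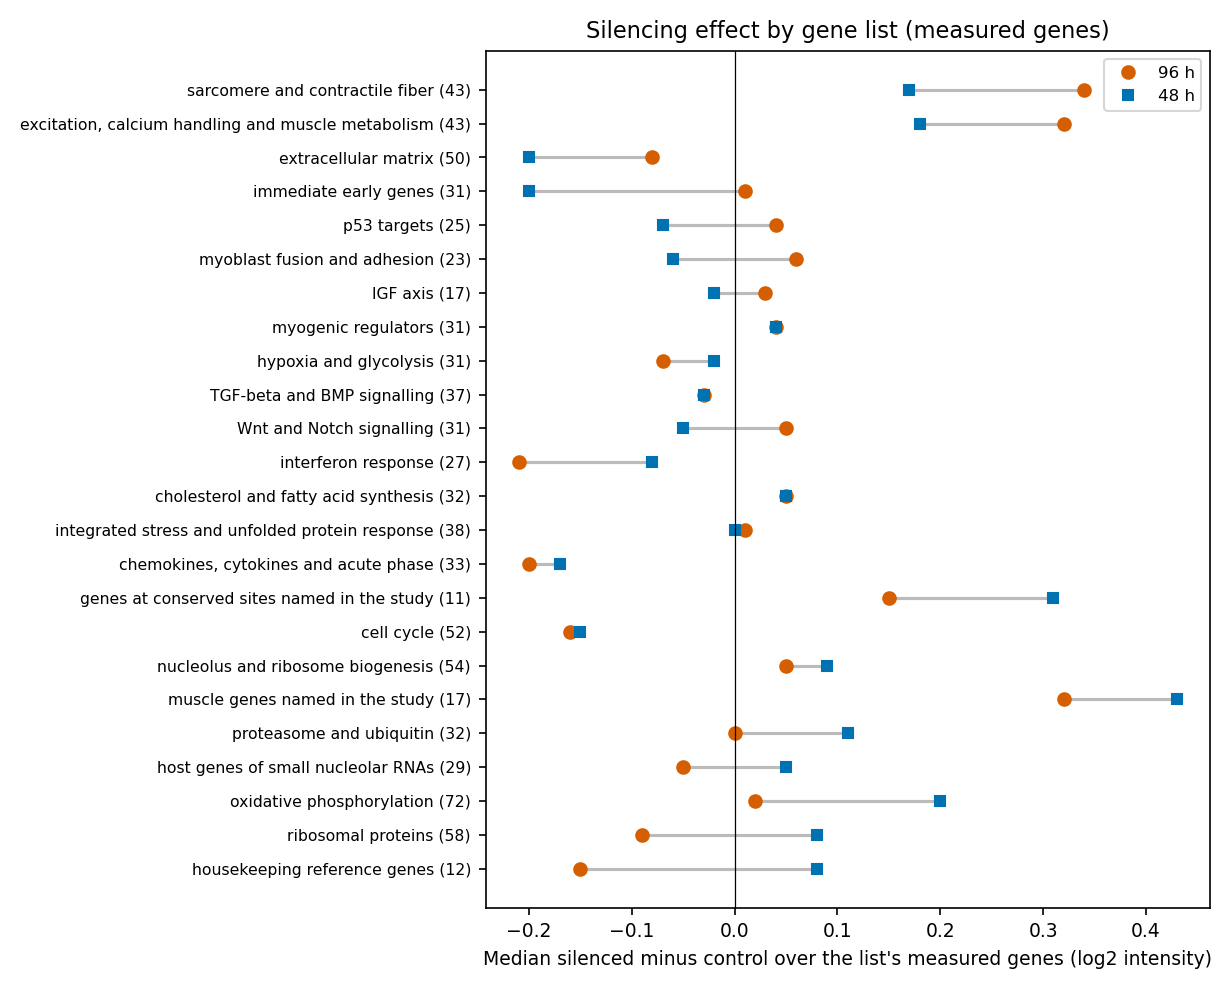
Median silencing effect of each gene list (silenced minus control, log2, horizontal axis) at 96 h (circles) and at 48 h (squares), for lists with at least 10 measured genes. The sarcomere list lies at 0.34 at 96 h and 0.17 at 48 h, and the oxidative phosphorylation list at 0.02 at 96 h and 0.20 at 48 h.

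Other probes of the named genes did not always pass. They had the same sign without passing for *Slc4a8* (0.53), *Gkap1* (-0.33), *Plec* (0.73), *Phldb1* (0.14), *Adarb1* (0.41), *Cycs* (-0.55), *Rpl27a* (-0.52), *Nop10* (-0.33), *Heatr1* (0.57), *Car9* (-0.55), *Porcn* (0.46), *Ptprs* (0.39) and *Snrpd1* (-0.55). *Bmp1* had 3 further probes, of which 1 passed at 0.76 and the others had 0.45 and -0.08. *Tgfbr1* had 2 at -0.41 and -0.09, the remaining *Slc4a3* probe had 0.57, and the second of *Slc22a18* had 0.01.

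Among the 231 probes with an effect of the same direction on both days, 122 were higher and 109 lower in silenced cells. *Tceal5*, a gene of the transcription elongation factor A-like family, read 10.19, 9.92 and 9.52 in silenced and 8.29, 8.73 and 8.71 in control cells at 96 h, and 8.97, 9.05 and 8.79 in silenced and 7.96, 7.46 and 7.52 in control cells at 48 h. The arms lay apart on both days, and the interaction was 0.01 (95% interval -0.54 to 0.56). The interval was -0.85 to 0.36 for *Itm2a*, a membrane protein of early myogenesis, -0.38 to 0.71 for *Aatk*, a kinase gene, and -0.69 to 0.26 for *Cxcl13*, a chemokine of B cells. *Gjd4*, a connexin of muscle progenitors, had -0.76 (95% interval -1.17 to -0.35) and missed the threshold (adjusted p = 0.0519), but it passed in 8 of 11 other settings, so that an equal effect on both days is not shown. Of the persistent falls, the interval was -1.44 to 0.07 for *Sfrp2*, a modulator of Wnt signalling, -1.19 to -0.15 for the glutamate transporter *Slc1a3* (adjusted p = 0.133), -0.39 to 0.31 for *Abat*, which degrades GABA, -0.35 to 0.70 for the chaperone gene *Clu* and -0.61 to 0.48 for the amine oxidase *Aoc3*. Apart from that of *Abat*, these intervals reach a size past 0.43, the smallest interaction that passed, in at least 1 direction. Of 11 genes at conserved ZBED6 sites named by the study 7 were in this class, and 0 interactions among the 11 passed in limma (1 at an unadjusted p under 0.05). The study chose such genes by RNA sequencing and by conserved sites at ZBED6 ChIP-seq peaks, and named these 11 as borne out by these arrays. The same direction on both days was among its criteria, so neither count is independent evidence.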

How the data were processed

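Total RNA of 12 C2C12 samples was hybridised to Illumina mouse arrays. The authors deposited a table of non-normalized probe intensities with a detection p-value per probe and array, and a table of processed values on the log2 scale made with lumi (version not given in the sources used here), whose centring is not stated. Processed columns correlated with the raw values of their own array at 0.777 to 0.848 and with those of other arrays at up to 0.642.

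In R 4.3.3 with limma 3.58.1, background was corrected by normexp with the detection p-values, an offset of 16 was added, and intensities were quantile normalized and taken to log2. Kept probes had a detection p under 0.05 on 3 or more arrays. The 4 group means were fitted with lmFit and eBayes (13 total degrees of freedom), without a replicate block, with a threshold of 0.05 after Benjamini-Hochberg adjustment across the 13095 kept probes. Precision is limited by 3 arrays per group. Of 25697 probes 23978 had 1 gene symbol, 0 several and 1719 none, from the platform annotation, and 11 gene identifiers were absent from the RefSeq table. A fold given as "at least" sets the brighter group against the dimmest detected signal of each array of the dimmer group.

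The genes named were *Zc3h11a* and *Igf2*, the reversing genes, the 6 of smallest p in each direction of the fading, emerging, growing and shrinking classes, 5 in each direction of those past on neither day, the 5 largest interactions in each direction, up to 4 past the test in each list, and 5 persistent genes in each direction. *Eef1b2* is named as the first outside the threshold. The lists covered the sarcomere, excitation, myogenic regulators, fusion, the IGF axis, chemokines, extracellular matrix, oxidative phosphorylation, ribosome, proteasome, nucleolus, snoRNA host genes (29 measured, 0 past the test in limma, 6 at an unadjusted p under 0.05, median -0.13), hypoxia, p53 targets (1 of 25), immediate early genes (1 of 31), TGF-beta and BMP signalling (3 of 37), Wnt and Notch signalling (2 of 31), interferon, stress responses, cell cycle, lipid synthesis, housekeeping genes and the study's own genes. Over all 8858 genes 3.06% passed. Members and lists were chosen with earlier results of these data known. Alternatives changed the background correction, scaling, offset, filter, gene summary, block, variance model and array weights, or left out an array.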

Additional observations from a re-analysis of the deposited data

Results flagged for a closer look

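The silencing effect differed between 96 h and 48 h by the interaction test for each of the following genes, given as the effect at 96 h minus that at 48 h on the log2 scale. Among fading rises it was -1.44 for *Slc40a1*, -1.62 for *Tex14*, -1.19 for *Mc4r*, -1.04 for *Lpl*, -0.82 for *Snrnp27* and -1.12 for *Ido1*. Among fading falls it was 1.07 for *Col18a1*, 1.53 for *Atg9b*, 0.87 for *Bsg*, 1.20 for *Hk1*, 0.88 for *Clip4* and 0.93 for *Slc4a8*. Where the effect kept its direction it was -0.83 for *Ddc*, 0.69 for *Slc22a18*, 0.59 for *Fam102a*, 0.49 for *Adarb1* and -0.59 for *Hacd4*. *Ido1* and *Bsg* were each detected in 1 group only, so their values rest on background in the other groups.

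Among emerging rises it was 1.31 for *Rnase6*, 0.90 for *Upk1b*, 1.0 for *Padi2*, 0.75 for *Tmem131*, 0.71 for *Ints1* and 0.53 for *Cdk11b*. Among emerging falls it was -1.23 for *Klf6*, -0.92 for *Gkap1*, -1.06 for *Mgst1*, -0.92 for *Fmo1*, -0.81 for *Cnot4*, -0.86 for *Zmat1*, -1.58 for *Lbp*, -1.49 for *Npr3* and -1.42 for *Dynll2*. Among reversing genes it was -0.82 for *Nrep*, 1.13 for *Llgl2*, -0.71 for *Eola1*, 0.73 for *Ctsw*, -1.12 for *Igfbp4*, 0.75 for *Plec*, 0.81 for *Slc4a3*, 0.57 for *Phldb1* and 0.85 for *Aknad1*. Among genes past the threshold on neither day it was 0.90 for *Rac3*, 0.65 for *Acvr2b*, 0.72 for *Adamts7*, 0.48 for *Ptprs*, 0.57 for *Supt6*, -0.59 for *Ammecr1l*, -0.51 for *Fam162a*, -0.58 for *Snrpd1*, -0.47 for *Tomm7* and -0.75 for *Map3k1*.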

How the results depend on the processing

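Beside 385 interaction calls (220 fading, 114 emerging, 18 reversing), there were 929 (480, 280 and 50) with no background correction, 135 (65, 58 and 8) with median scaling, 778 (432, 188 and 61) with the authors' processed values, 773 (403, 235 and 42) with an offset of 50, 671 (358, 197 and 38) with a stricter filter, 949 (497, 276 and 54) with a trended, robust variance and 642 (306, 225 and 44) with array weights. Reversing calls were 10 with no filter, 2 with each day's effect fitted on its own 6 arrays and 82 with a class threshold of 0.10. Leaving out 1 array gave 66 to 370 calls, 36 to 217 fading, 22 to 105 emerging and 1 to 18 reversing. Of the 385 calls 130 were kept with median scaling, 304 with the authors' values and 374 with the larger offset, and 26 were kept under every one of 22 alternatives at probe level. Of the 76 named genes past the test, 30 kept their call under all 11 other settings and 24 without each array, and none changed sign. A gene given above without a loss may still have been lost under another setting. With median scaling this was so for *Plec*, *Bmp1*, *Ints1*, *Col5a1*, *Heatr1* and *Lama2*, among others. Of the 11 settings *Car9* kept its call in 6, *Tgfbr1* in 7 and *Dynll2* in 8. Positive calls were 55.6% with median scaling, against 49.9%.

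With the replicate number as a block there were 225 calls, of which 121 were fading, 76 emerging and 12 reversing, and 211 of the 385 were kept. Arrays of the same number correlated at -0.173 to 0.176 in their deviations from the group means, with 3 of 18 pairs over 0.1, so the numbers were not taken as pairs. Probes near background are bounded by detection, and the slide of each array was not analysed here.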

Other observations

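Some gene families were chosen after their values were seen and are given as values only, beside 3.06% of all genes past the interaction test. The number of the 12 fits leaving out 1 array in which a call held is given where it was not all 12. Of 25 measured genes with Snrp, Snrnp or Lsm symbols, a wider group than the Sm and LSm proteins, 5 passed, all negative. They were *Snrnp27* (-0.82), *Lsm3* (-0.63, 1 fit), *Snrpg* (-0.61, 6 fits), *Snrpd1* (-0.58, 3 fits) and *Lsm10* (-0.48, 1 fit), and 22 of 25 estimates were negative. The family's median effect was -0.16 at 96 h and 0.18 at 48 h. Of 8 measured Ccl and Cxcl chemokines 4 passed, all negative, with *Ccl11*, an attractant of eosinophils (-1.06, 5 fits), beside *Ccl7* (1 fit), *Ccl8* (9 fits) and *Cxcl12*. Of these *Ccl8* was detected in 1 group only.

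Of 10 measured Integrator subunits 2 passed, *Ints1* (0.71, 7 fits) and *Ints3* (0.47, 1 fit), both emerging rises. Of 19 measured Tomm and Timm genes of mitochondrial import 2 passed, *Tomm22* (-0.71, 3 fits) and *Tomm7* (-0.47, 0 fits). Of 25 Mediator subunits 2 passed, *Med12* (0.67, 2 fits) and *Med24* (0.61, 5 fits), while 15 of the 25 Mediator estimates were negative. Of 4 measured Slc4 transporters *Slc4a3* (0.81, 7 fits) and *Slc4a8* (0.93) passed.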
